A study of Mus musculus with 12 samples.

Results

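The dual-specificity MAPK phosphatases are enzymes that remove phosphate from both the threonine and the tyrosine by which mitogen-activated protein kinases (MAPKs) are switched on. The 10 genes Dusp1, Dusp2, Dusp4, Dusp5, Dusp6, Dusp7, Dusp8, Dusp10, Dusp14 and Dusp16 were taken by symbol from the 55335 genes of the expression table, whatever their values, and each had 1 row. MAPKs fall into the ERK, JNK and p38 classes, and each phosphatase acts on some of these classes, in the nucleus, in the cytoplasm or in both. Several of the genes are transcribed in response to the kinases that their products turn off, which makes them negative feedback regulators. In macrophages, Dusp1 is known for limiting p38 and JNK activity and cytokine production after exposure to lipopolysaccharide.

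Mouse bone marrow cells were grown in culture into macrophages (bone marrow-derived macrophages, BMDMs), and their RNA was sequenced in 12 libraries forming 4 groups of 3. Wild-type control and Nlrp3-/- control BMDMs had no treatment, while wild-type LPS+ATP and Nlrp3-/- LPS+ATP BMDMs received lipopolysaccharide (LPS), a bacterial cell wall component, and afterwards ATP, which triggers the NLRP3 inflammasome. By the sample labels, LPS lasted 4 hours and ATP 30 minutes, whereas in the study's methods LPS (200 ng/ml) lasted 12 hours and ATP (3 mM) 2 hours. According to these methods the mice were C57BL/6 and 8 weeks old, and marrow was grown for 7 days in macrophage colony-stimulating factor at 40 ng/ml. The labels do not say whether the 3 libraries of a group came from separate mice or cultures, so p-values measure only the spread between these libraries, which may be technical.

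Levels are in FPKM, which divides the fragments of a gene by its length and by the total mapped in that library, so they can be compared between genes. The number of reads is not known from FPKM. Steps between low values gave a relative depth of 1 to 1.22 across libraries, the highest being in wild-type control replicate 3. Nlrp3, the targeted gene, was listed at 0 in all 6 Nlrp3-/- libraries. In wild-type control BMDMs it was 9.24, 9.71 and 10.1 FPKM, and in wild-type LPS+ATP BMDMs 32.1, 33.0 and 33.6 FPKM. The labels of genotype and the data therefore went together in every library.

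Genotype was not the sole difference between the wild-type and Nlrp3-/- libraries. In every wild-type library Xist, the RNA of the inactive X, was at 0.0416 FPKM or less, against 32.8 to 56.3 FPKM in Nlrp3-/- libraries. Conversely, 4 genes of the Y chromosome (Uty, Kdm5d, Ddx3y, Eif2s3y) had a value of 0 in each Nlrp3-/- library, with 0.903 FPKM (Kdm5d) as their lowest wild-type value. Sex and genotype therefore cannot be told apart here. Of 10 macrophage markers, 9 had a single row and all of these were tested. Their summed FPKM was between 19978 and 21153 in wild-type control, 11670 and 11739 in wild-type LPS+ATP, 19047 and 19293 in Nlrp3-/- control and 11027 and 11274 in Nlrp3-/- LPS+ATP, with Lyz2 the most abundant in each group and no marker at 0.

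Groups were compared with limma on log2(FPKM + 1) in 1 fit of all 12 libraries, over the 12622 genes that reached 1 FPKM in 3 or more libraries. A gene is termed called where its Benjamini-Hochberg adjusted p over these genes was under 0.05 and its log2 difference was at least 1 in size. Differences on this scale understate the change of genes with low FPKM. Dusp14 did not pass the filter, and 9 phosphatases were tested. Dusp8 passed through 6 libraries, of which 1 was wild-type and 2 were controls. Its genotype, stimulation and interaction differences therefore follow in part from the filter and are given as descriptions. The stimulation comparison in each genotype and the genotype comparison in each state share their libraries pairwise, so the 4 comparisons are not independent of each other.

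None of the 9 macrophage markers was called by limma for genotype in either state. By limma's adjusted p alone, however, 6 were lower and 0 higher in Nlrp3-/- control, with Cd68 at -0.73 and Csf1r at -0.62, and 5 were lower and 1 higher with LPS+ATP. At an unadjusted p under 0.05 the counts were 8 lower and 0 higher in control, against 16.7% and 37.0% of all tested genes, and 5 lower and 1 higher with LPS+ATP, against 14.6% and 39.7%. Markers of other cell types were higher in Nlrp3-/- BMDMs. Of 9 fibroblast markers, 7 were called higher in Nlrp3-/- BMDMs in control and 7 with LPS+ATP, against 6.02% and 4.48% of all tested genes. Lum and Thy1 passed the filter through Nlrp3-/- libraries alone, and without them 7 and 6 of 7 were called, Thy1 being the call left out. Their summed FPKM was 164 to 169 in wild-type control, 193 to 196 in wild-type LPS+ATP, 1208 to 1225 in Nlrp3-/- control and 941 to 957 in Nlrp3-/- LPS+ATP libraries, Col1a1 being the most abundant throughout and no marker at 0. Of 10 granulocyte markers 9 were tested, of which 8 were called higher in control and 4 with LPS+ATP, against the same shares. None of these calls was Retnlg, which passed the filter mainly through Nlrp3-/- libraries. The 10 had summed FPKM of 344 to 381, 329 to 343, 1839 to 1885 and 705 to 715 in the same order of groups. S100a9 was the most abundant in 3 of these groups and Lcn2 in wild-type LPS+ATP. Stimulation also moved markers: of the granulocyte genes it called 1 higher and 5 lower in wild-type and 1 higher and 7 lower in Nlrp3-/- BMDMs, with 3 lower in the interaction. Of all tested genes 11.2%, 8.21% and 1.43% were called lower in these comparisons, and 8.25% and 6.64% higher with stimulation. Mpo and Retnlg passed the filter through control libraries alone, and without them 4, 5 and 2 were lower. Of the macrophage genes 2 were called higher and 2 lower with stimulation in each genotype and 0 in the interaction, and no fibroblast gene was called for either. By limma's adjusted p alone, the interaction had 5 of 9 macrophage genes higher and 3 lower, against 14.7% and 13.0% of all tested genes. Without the filter-dependent genes named above, 6 of 7 fibroblast and 5 of 7 granulocyte genes were lower. Stimulation had 7 fibroblast genes higher and 1 lower in wild-type, against 23.3% and 53.1%. In Nlrp3-/- BMDMs these were 4 and 4, against 20.6% and 53.8%. The part of these cells in the genotype, stimulation and interaction values of the phosphatases was not tested, and fewer cells of a type cannot be told apart from less RNA per cell. The T cell and dendritic cell lists, of 5 genes each, had summed FPKM of at most 0.877 and 1.09 in any library and no tested gene, with Cd3e and Cd3d at 0 in wild-type LPS+ATP, Cd3e in Nlrp3-/- control, Cd3g in Nlrp3-/- LPS+ATP and Siglech in both stimulated groups. The B cell and mast cell lists reached at most 7.54 and 10.2 FPKM, in Nlrp3-/- control, led by Cd79b and Mcpt8, and Tpsb2 was at 0 in every group. The 2 tested genes of each list passed the filter mostly or only through Nlrp3-/- libraries, so their genotype tests are left out.

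**Figure D1:**
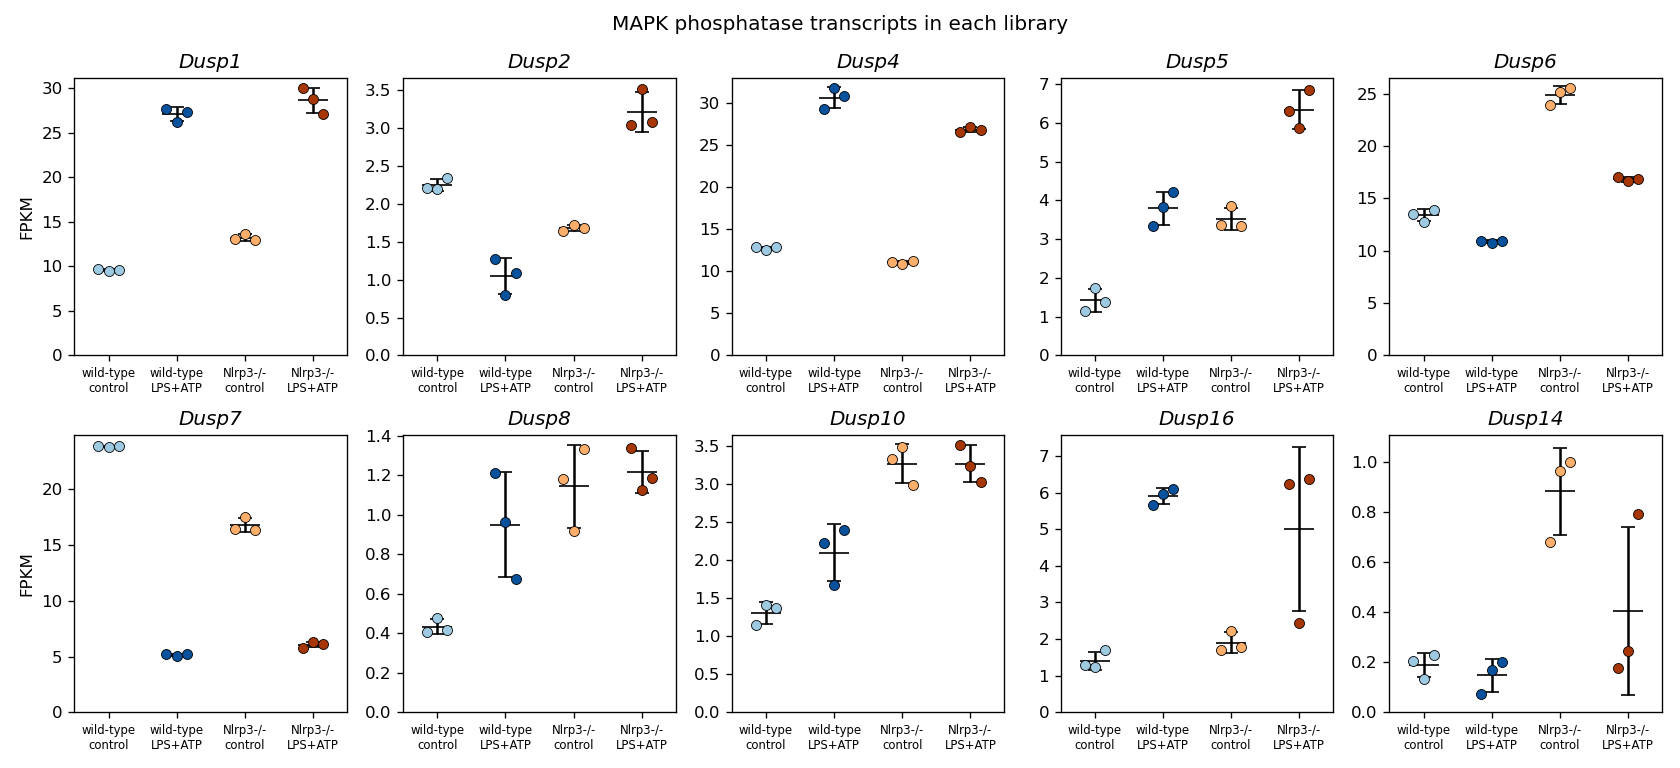
FPKM of each of the 10 phosphatase genes (vertical axis, from 0, with its own scale per gene) in the 4 groups (horizontal axis). Points are libraries, and the horizontal bar and whiskers are the mean and SD of 3 libraries. Dusp2 is lowest in wild-type LPS+ATP and highest in Nlrp3-/- LPS+ATP BMDMs, and Dusp7 is lower with LPS+ATP in both genotypes.

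The promoter sequences of 9 of the 10 genes were matched by symbol in RefSeq (GRCm38.p6), Dusp4 being the other. The 250 bases before the start are shown 5′ to 3′ on the gene's own strand for 4 genes. Dusp1 and Dusp5 rose with LPS+ATP in both genotypes, Dusp7 fell in both, and Dusp2 moved in opposite directions. The windows are chr17:26508473-26508722 (minus strand) for Dusp1, chr2:127335909-127336158 (plus strand) for Dusp2, chr19:53528895-53529144 (plus strand) for Dusp5 and chr9:106368382-106368631 (plus strand) for Dusp7. Capitals mark matches, on either strand, to the cyclic AMP response element (CRE) TGACGTCA, its shorter core TGACG, the AP-1 element TGANTCA, the kappaB element or the CArG box, the site of serum response factor.
Dusp1: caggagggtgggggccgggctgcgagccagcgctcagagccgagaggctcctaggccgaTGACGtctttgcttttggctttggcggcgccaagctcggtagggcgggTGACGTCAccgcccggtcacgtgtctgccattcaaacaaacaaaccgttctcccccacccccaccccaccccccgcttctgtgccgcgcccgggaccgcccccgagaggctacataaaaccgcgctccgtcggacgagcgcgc
Dusp2: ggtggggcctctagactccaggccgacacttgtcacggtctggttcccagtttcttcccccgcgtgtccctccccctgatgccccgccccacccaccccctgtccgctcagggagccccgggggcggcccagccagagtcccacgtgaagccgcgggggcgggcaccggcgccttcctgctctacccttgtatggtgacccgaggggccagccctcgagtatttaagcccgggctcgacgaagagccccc
Dusp5: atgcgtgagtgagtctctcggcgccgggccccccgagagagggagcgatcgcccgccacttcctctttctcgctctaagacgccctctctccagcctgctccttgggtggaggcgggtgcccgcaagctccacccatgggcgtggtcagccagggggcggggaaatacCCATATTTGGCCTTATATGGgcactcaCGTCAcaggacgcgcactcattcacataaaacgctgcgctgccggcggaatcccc
Dusp7: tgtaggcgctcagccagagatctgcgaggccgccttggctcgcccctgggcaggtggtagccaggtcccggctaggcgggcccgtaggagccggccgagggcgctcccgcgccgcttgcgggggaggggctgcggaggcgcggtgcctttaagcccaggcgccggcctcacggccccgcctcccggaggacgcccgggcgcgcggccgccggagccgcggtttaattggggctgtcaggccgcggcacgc
Dusp1 held the full CRE at 143 to 136 bases before the start and a further core at 191 to 187 bases, and the core within the CRE overlaps it. Dusp5 held CArG boxes at 82 to 73 and at 72 to 63 bases before the start, directly beside each other, and a core of the CRE on the other strand. Dusp2 and Dusp7 had no match to any of these letters in this window. Among the 9 genes, 2 had the full CRE (Dusp1 and Dusp8), 4 the core, 1 the CArG box, and 0 the AP-1 or kappaB element. Over all 32851 promoters of the same length the shares were 1.55% for the full CRE, 17.8% for the core, 1.47% for the CArG box, 6.75% for AP-1 and 3.9% for kappaB. A match is a description of the letters and not a measured binding site.

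Dusp1, Dusp2, Dusp4 and Dusp5 encode the inducible phosphatases of the nucleus. Dusp1 (ENSMUSG00000024190, chromosome 17) acts on p38, JNK and ERK. Its FPKM was 9.64, 9.43 and 9.57 in wild-type control, 27.6, 26.2 and 27.3 in wild-type LPS+ATP, 13.0, 13.6 and 12.9 in Nlrp3-/- control and 29.9, 28.8 and 27.1 in Nlrp3-/- LPS+ATP BMDMs. Every stimulated library lay above every control library of its genotype, the Nlrp3-/- controls lay above the wild-type controls, and the stimulated libraries of the genotypes overlapped. By limma, Dusp1 rose with LPS+ATP by 1.41 ± 0.0413 (SE) on the log2 scale in wild-type BMDMs (Benjamini-Hochberg adjusted p = 5.61e-11) and by 1.06 ± 0.0413 in Nlrp3-/- BMDMs (adjusted p = 9.71e-10). The smaller rise in Nlrp3-/- BMDMs started from a higher control level. The interaction, that is the change in Nlrp3-/- minus the change in wild-type, was -0.35 ± 0.0584 (limma, adjusted p = 0.00115). In GENCODE M21, Ergic1 shares 11 of the 3311 exonic bases of Dusp1, on the other strand. Ergic1 was at 8.01 to 11.1 FPKM over the 12 libraries.

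Dusp4 (ENSMUSG00000031530, chromosome 8), which acts on ERK and JNK, was at 12.9, 12.6 and 12.9 FPKM in wild-type control and at 29.3, 31.8 and 30.8 in wild-type LPS+ATP BMDMs. In Nlrp3-/- BMDMs it was at 11.1, 10.8 and 11.3 FPKM without and at 26.6, 27.2 and 26.8 with LPS+ATP. Stimulated and control libraries did not overlap in either genotype, and in both states the Nlrp3-/- libraries lay below the wild-type libraries. The log2 rise was 1.20 ± 0.0350 (SE) in wild-type (limma, adjusted p = 5.58e-11) and 1.21 ± 0.0350 in Nlrp3-/- BMDMs (adjusted p = 7.14e-11). The interaction was 0.01 ± 0.0496, with a limma adjusted p of 0.907, and its sign turned under some of the scalings.

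Dusp5 (ENSMUSG00000034765, chromosome 19) is selective for ERK. Its control FPKM was 1.15, 1.74 and 1.38 in wild-type and 3.37, 3.85 and 3.33 in Nlrp3-/- BMDMs, and with LPS+ATP it was 3.35, 3.82 and 4.21 in wild-type and 6.31, 5.86 and 6.86 in Nlrp3-/- BMDMs. Each of the 4 comparisons separated the libraries fully, and untreated Nlrp3-/- BMDMs stood in the same range as stimulated wild-type BMDMs. Stimulation raised Dusp5 by 0.99 ± 0.0974 (SE) in wild-type (limma, adjusted p = 2.65e-06), just under the fold limit, and by 0.70 ± 0.0974 in Nlrp3-/- BMDMs (adjusted p = 5.49e-05). Nlrp3-/- exceeded wild-type by 0.90 ± 0.0974 in control (limma, adjusted p = 1.42e-05) and by 0.62 ± 0.0974 with LPS+ATP (adjusted p = 0.000306). In the wild-type stimulation the change passed the fold limit with a pseudocount of 0.1 (1.37), under each of 3 rescalings (1.12 to 1.30), without wild-type control replicate 2 (1.08) and without wild-type LPS+ATP replicate 1 (1.06). An antisense gene, AC137853.2, covers 547 of its 2473 exonic bases in GENCODE M21. Its own FPKM was at most 0.273, and since the counting is not stated to use strand, reads of the pair cannot be told apart.

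Dusp2 (ENSMUSG00000027368, chromosome 2), which acts on ERK and p38 and is known from immune cells, behaved differently in the genotypes. It was at 2.21, 2.19 and 2.35 FPKM in wild-type control and at 1.27, 0.800 and 1.08 in wild-type LPS+ATP BMDMs. In Nlrp3-/- BMDMs it was at 1.65, 1.73 and 1.68 FPKM without and at 3.04, 3.52 and 3.09 with LPS+ATP. All stimulated wild-type libraries were below, and all stimulated Nlrp3-/- libraries above, the controls of the same genotype. The log2 change was -0.67 ± 0.0803 (SE) in wild-type (limma, adjusted p = 1.40e-05) and 0.65 ± 0.0803 in Nlrp3-/- BMDMs (adjusted p = 2.12e-05). Their difference, the interaction, was 1.32 ± 0.114 and was called (limma, adjusted p = 1.05e-05). Nlrp3-/- stood below wild-type in control by -0.27 ± 0.0803 (limma, adjusted p = 0.0156, but 0.0515 without wild-type control replicate 3) and above it with LPS+ATP by 1.04 ± 0.0803 (adjusted p = 1.00e-06). The last of these was called by a narrow margin: it came to 0.98 under upper-quartile and 0.95 under median-ratio scaling, 0.95 without wild-type LPS+ATP replicate 2 and 0.99 without Nlrp3-/- LPS+ATP replicate 2. It was larger, 1.54, with a pseudocount of 0.1 and 1.42 with TPM, and with that pseudocount the wild-type change was -1.05 and called.

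Dusp6 and Dusp7 encode phosphatases of the cytoplasm that are selective for ERK. Dusp6 (ENSMUSG00000019960, chromosome 10) was at 13.5, 12.8 and 13.9 FPKM in wild-type control, 11.0, 10.7 and 11.0 in wild-type LPS+ATP, 23.9, 25.1 and 25.5 in Nlrp3-/- control and 17.1, 16.6 and 16.8 in Nlrp3-/- LPS+ATP BMDMs. All 4 comparisons separated the libraries, with Nlrp3-/- above wild-type in both states and LPS+ATP below control in both genotypes. The genotype difference was 0.85 ± 0.0384 (SE) in control (limma, adjusted p = 1.11e-08) and 0.58 ± 0.0384 with LPS+ATP (adjusted p = 2.76e-07). Stimulation changed Dusp6 by -0.54 ± 0.0384 in Nlrp3-/- (limma, adjusted p = 2.01e-07) and by -0.28 ± 0.0384 in wild-type BMDMs (adjusted p = 4.86e-05). The wild-type change was close to the median of all tested genes, -0.255, and under median-ratio scaling it was 0.03 (limma, adjusted p = 0.516, against 3.76e-05 as the lowest of the alternatives). The Nlrp3-/- change was -0.26 under the same scaling (limma, adjusted p = 0.000129).

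Dusp7 (ENSMUSG00000053716, chromosome 9) was the most abundant of the 10 in wild-type control BMDMs, at 23.8, 23.7 and 23.8 FPKM, and fell to 5.19, 5.04 and 5.21 with LPS+ATP. In Nlrp3-/- BMDMs it was at 16.5, 17.5 and 16.3 FPKM in control and at 5.79, 6.26 and 6.17 with LPS+ATP. The stimulated libraries lay far below the controls in both genotypes. The log2 change was -2.01 ± 0.0396 (SE) in wild-type (limma, adjusted p = 2.06e-12) and -1.33 ± 0.0396 in Nlrp3-/- BMDMs (adjusted p = 9.12e-11), and the interaction was 0.68 ± 0.0560 (adjusted p = 7.35e-06). In control, Nlrp3-/- stood at -0.48 ± 0.0396 against wild-type (limma, adjusted p = 1.44e-06). With LPS+ATP it stood at 0.20 ± 0.0396 (limma, adjusted p = 0.00138), but this difference was 0.04 under median-ratio scaling (adjusted p = 0.437, against 0.000572 as the lowest of the alternatives).

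Dusp8, Dusp10 and Dusp16 encode phosphatases with a preference for JNK and p38. Dusp16 (ENSMUSG00000030203, chromosome 6) was at 1.30, 1.237 and 1.69 FPKM in wild-type control and at 5.66, 5.95 and 6.09 in wild-type LPS+ATP BMDMs, and in Nlrp3-/- BMDMs at 1.70, 2.23 and 1.77 in control and at 6.24, 2.44 and 6.38 with LPS+ATP. Replicate 2 of Nlrp3-/- LPS+ATP stood apart from the other libraries of its group, near the controls, and the mean of the other 2 was 6.31 FPKM. The rise with LPS+ATP was 1.52 ± 0.237 (SE) in wild-type (limma, adjusted p = 0.000116) and 0.97 ± 0.237 in Nlrp3-/- BMDMs (adjusted p = 0.00312). Without that replicate the Nlrp3-/- rise was 1.34 (limma, adjusted p = 7.34e-07, against up to 0.0227 in other alternatives) and past the fold limit. It also passed this limit with a pseudocount of 0.1 (1.242), with TPM (1.23), under upper-quartile (1.06) and median-ratio scaling (1.17) and without Nlrp3-/- control replicate 2 (1.05). Without Nlrp3-/- LPS+ATP replicate 2 the genotype difference with LPS+ATP went from -0.28 to 0.08. Neither genotype difference nor the interaction passed the threshold with all libraries (limma, adjusted p = 0.384, 0.361 and 0.263). Without the same replicate the genotype difference in control, unchanged at 0.27, had a limma adjusted p of 0.0266, against 0.076 to 0.619 under the other alternatives.

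Dusp10 (ENSMUSG00000039384, chromosome 1) was at 1.14, 1.41 and 1.37 FPKM in wild-type control, 2.22, 1.68 and 2.39 in wild-type LPS+ATP, 3.33, 3.49 and 2.99 in Nlrp3-/- control and 3.52, 3.24 and 3.03 in Nlrp3-/- LPS+ATP BMDMs. Stimulated wild-type libraries lay above their controls, the Nlrp3-/- states overlapped, and Nlrp3-/- lay above wild-type in each state. The wild-type rise was 0.42 ± 0.0915 (SE; limma, adjusted p = 0.00145; 0.63 with a pseudocount of 0.1 and 0.64 under median-ratio scaling), the genotype difference was 0.89 ± 0.0915 in control (adjusted p = 9.70e-06) and 0.47 ± 0.0915 with LPS+ATP (adjusted p = 0.00138). The change in Nlrp3-/- BMDMs was -0.0012 ± 0.0915 (limma, adjusted p = 0.991), and the interaction was -0.42 ± 0.129 (adjusted p = 0.0332). Among the alternatives the limma adjusted p of this interaction went from 0.00554 to 0.0769.

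Dusp8 (ENSMUSG00000037887, chromosome 7) was low, at 0.408, 0.479 and 0.415 FPKM in wild-type control, 1.21, 0.965 and 0.676 in wild-type LPS+ATP, 1.18, 0.919 and 1.33 in Nlrp3-/- control and 1.34, 1.13 and 1.19 in Nlrp3-/- LPS+ATP BMDMs. Wild-type control lay below each other group, and those groups overlapped. The log2 difference was 0.44 ± 0.102 (SE) for stimulation in wild-type, or 0.95 with a pseudocount of 0.1 and 0.78 with TPM. For genotype in control it was 0.58. Both differences are descriptions, since 5 of the 6 libraries that carried Dusp8 past the filter were Nlrp3-/- and 4 were LPS+ATP. The lncRNA Gm32786, which shares 66 of its 4870 exonic bases on the other strand, was listed at 0 in all libraries. Dusp14 (ENSMUSG00000018648, chromosome 11), a small atypical phosphatase, was between 0.0729 and 1.00 FPKM over the 12 libraries and was not tested. Its Nlrp3-/- control libraries, at 0.682, 0.964 and 1.00 FPKM, lay above the wild-type libraries, which were at most 0.230.

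**Figure D2:**
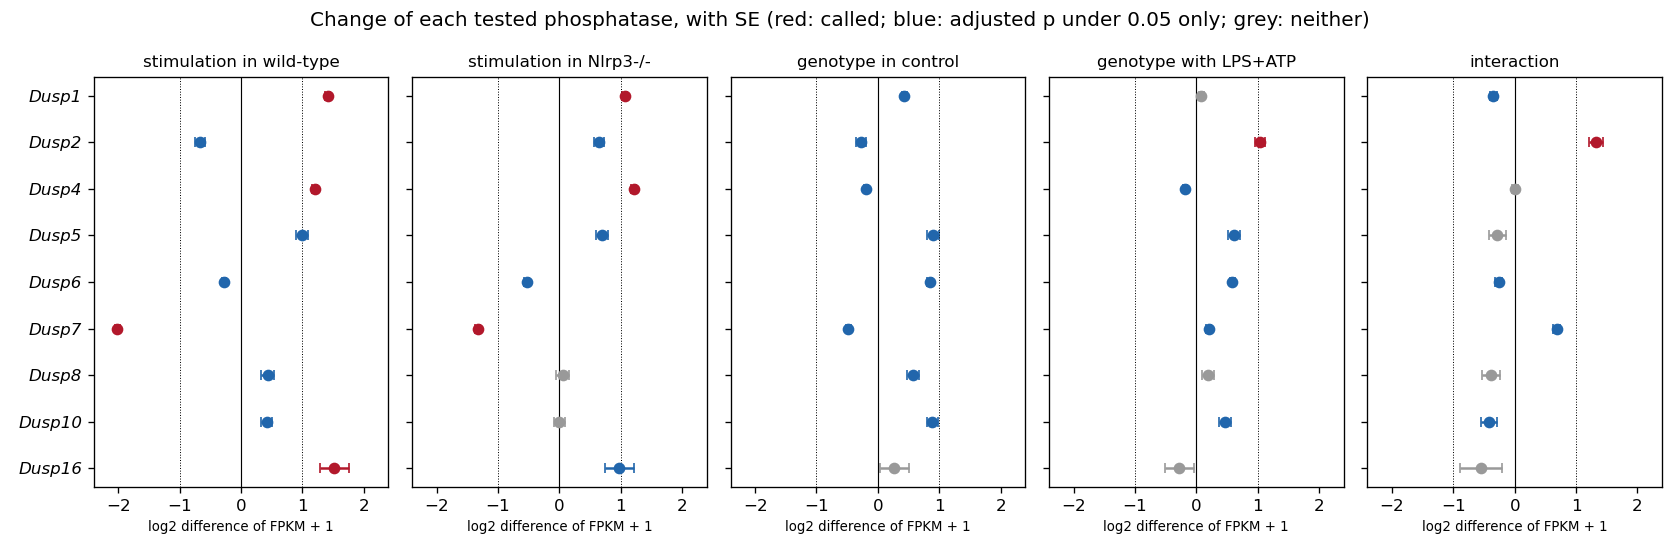
Log2 difference of FPKM + 1 (horizontal axis) for the 9 tested phosphatases in the 5 comparisons, with SE as whiskers; dotted lines mark the fold limit of 1. Dusp7 lies at -2.01 with stimulation in wild-type, and Dusp2 lies on opposite sides of 0 in the stimulation panels.

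Across the 9 tested phosphatases, stimulation in wild-type called 3 as higher (Dusp1, Dusp4 and Dusp16), against 8.25% of all tested genes, and 1 as lower (Dusp7), against 11.2%. At an adjusted p under 0.05 alone 6 were higher, or 5 without Dusp8, against 23.3%, and 3 were lower, against 53.1%. In Nlrp3-/- BMDMs stimulation called 2 as higher (Dusp1 and Dusp4), against 6.64%, and 1 as lower (Dusp7), against 8.21%, and by adjusted p alone 5 were higher, against 20.6%, and 2 lower, against 53.8%. The median log2 change of the 9 was 0.44 in wild-type, which is the value of Dusp8, and 0.65 in Nlrp3-/- BMDMs (0.70 and 0.67 without Dusp8), beside -0.255 and -0.242 over all tested genes.

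Median-ratio scaling moved the median of all tested genes by 0.246 (wild-type) and 0.229 (Nlrp3-/-) with stimulation. Relative to the median of all genes, Dusp1 changed by 1.67 and 1.30, Dusp4 by 1.45 and 1.45, Dusp7 by -1.76 and -1.09 and Dusp2 by -0.41 and 0.89 in wild-type and Nlrp3-/- BMDMs, so these directions stayed, while Dusp6 in wild-type was at -0.020 and turned sign under this scaling.

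By limma no phosphatase was called for genotype in control, where 6.02% of all tested genes were called higher and 0.689% lower in Nlrp3-/- BMDMs. At an unadjusted p under 0.05 there were 8 of 9, or 7 of 8 without Dusp8, against 53.7% of all tested genes. By adjusted p alone 5 were higher, or 4 without Dusp8, against 33.3%, and 3 lower, against 14.5%. A pseudocount of 0.1 called Dusp5 and Dusp10, and also Dusp8. With LPS+ATP only Dusp2 was called higher, against 4.48% of all tested genes, and none lower, against 0.570%. By adjusted p alone 5 were higher, against 35.9%, and 1 lower, against 12.6%. The interaction called Dusp2 alone, as higher, against 0.721%, and none as lower, against 1.43%, and by adjusted p alone 2 were higher, against 14.7%, and 3 lower, against 13.0%. The median over the 9 was 0.43 for genotype in control, 0.20 with LPS+ATP and -0.29 for the interaction (0.35, 0.33 and -0.27 without Dusp8), beside 0.088, 0.106 and 0.0226 over all tested genes.

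**Figure D3:**
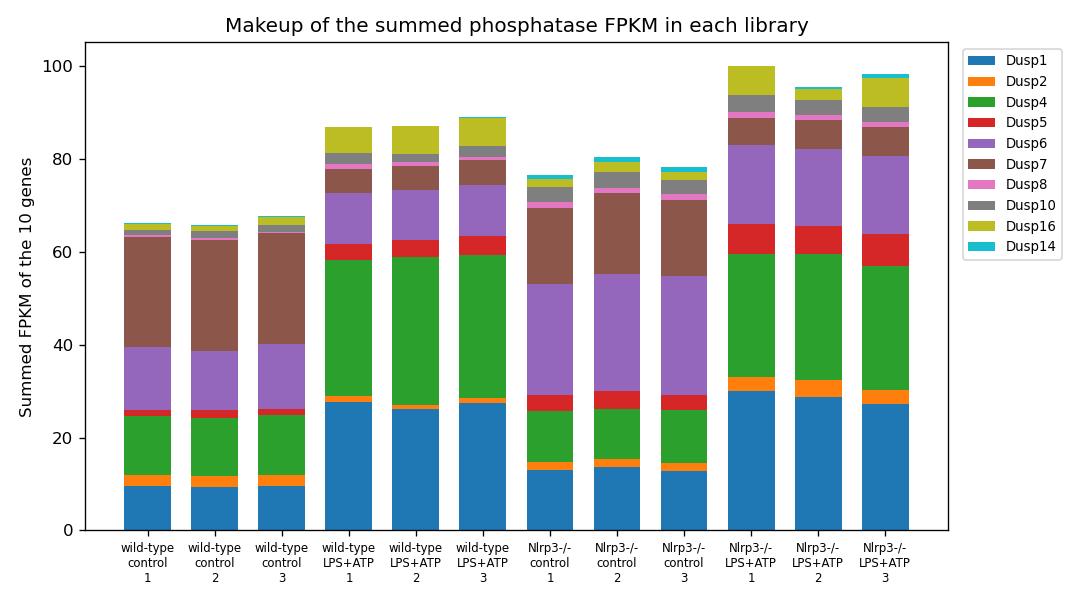
Summed FPKM of the 10 phosphatase genes (vertical axis, from 0) in each of the 12 libraries (horizontal axis, with replicate number), divided by gene. Dusp7 and Dusp6 make up most of the control libraries, and Dusp1 and Dusp4 most of the stimulated ones.

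The summed FPKM of the 10 genes was 66.5 ± 0.982 (SD, n = 3) in wild-type control, 87.7 ± 1.16 in wild-type LPS+ATP, 78.3 ± 1.96 in Nlrp3-/- control and 97.9 ± 2.36 in Nlrp3-/- LPS+ATP BMDMs. The nuclear genes Dusp1, Dusp2, Dusp4 and Dusp5 held 39.1% ± 0.380 (SD, n = 3) of it in wild-type control and 71.3% ± 0.487 with LPS+ATP, and 37.6% ± 0.414 and 66.5% ± 1.88 in Nlrp3-/- BMDMs. Conversely, the cytoplasmic pair Dusp6 and Dusp7 went from 55.9% ± 0.423 to 18.3% ± 0.265 in wild-type and from 53.2% ± 0.359 to 23.4% ± 0.574 in Nlrp3-/- BMDMs. Dusp7 alone went from 35.8% to 5.87% in wild-type and from 21.4% to 6.21% in Nlrp3-/- BMDMs. These shares were not tested.

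The order of levels changed with treatment and genotype. In wild-type control BMDMs Dusp7 led, followed by Dusp6 and Dusp4, whose libraries overlapped, and then Dusp1, while Dusp5, Dusp16 and Dusp10 overlapped in turn. With LPS+ATP, Dusp4 led Dusp1 and Dusp6, each apart from the next, and Dusp2 and Dusp8 overlapped near the bottom. Untreated Nlrp3-/- BMDMs had Dusp6 first, then Dusp7, Dusp1 and Dusp4, each apart from the next. In Nlrp3-/- LPS+ATP BMDMs Dusp1 and Dusp4 overlapped at the top, Dusp6 followed apart, and Dusp5, Dusp7, Dusp16, Dusp10 and Dusp2 overlapped in turn. Dusp16 reached down to Dusp10 only through replicate 2, at 2.44 FPKM, and the mean of its other 2 libraries was 6.31 FPKM. By mean FPKM Dusp14 was last in each group, though its libraries overlapped those of Dusp8 in Nlrp3-/- control BMDMs.

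For each tested phosphatase the genes with the most similar log2 levels over the 12 libraries were found by Pearson's r, as a description. Dusp1 was most like Ccl7, Nfkbia and Foxp4 (r = 0.998, 0.997 and 0.997), and Dusp4 most like Samhd1, Ifit2 and March1 (0.999, 0.999 and 0.999). Dusp7 was closest to Aldh9a1, Slc9a9 and St6gal1 (0.999, 0.999 and 0.998) and Dusp6 to Cdc42ep1, Sox4 and the granulocyte marker S100a8 (0.997, 0.997 and 0.995). The nearest genes to Dusp2 were Sik1, Rpn1 and Slc35c1 (0.958, 0.927 and 0.924), to Dusp5 Acp5, Unc5b and Fzd1 (0.988, 0.988 and 0.987), and to Dusp10 Slc7a6, Mmp9 and Col4a2 (0.975, 0.972 and 0.971). Dusp8 and Dusp16 were closest to Lnpk (0.946) and Napepld (0.963). The libraries form 4 clusters, which alone gives high values of r.

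Other genes of the pathway were taken from lists of its parts. Among 10 tested further dual-specificity phosphatases of 17 listed, stimulation called 1 higher and 2 lower in wild-type, and 1 higher and 1 lower in Nlrp3-/- BMDMs, where 8.25% and 11.2% of all tested genes were called higher and lower in wild-type and 6.64% and 8.21% in Nlrp3-/- BMDMs. Dusp28 rose by 1.82 in wild-type and 2.07 in Nlrp3-/-, Dusp3 changed by -1.55 and -1.76, and Dusp22 by -1.01 and -0.68, the last under the fold limit. Of 6 tested MAPK-directed phosphatases of other families (8 listed), none was called by limma in any comparison, while 5 had an unadjusted p under 0.05 with stimulation in wild-type, against 77.8% of all tested genes. By adjusted p alone stimulation in wild-type had 2 higher, against 23.3%, and 3 lower, against 53.1%. Of 9 tested MAPKs (14 listed), Mapk3, which encodes an ERK, was called at -1.14 with stimulation in wild-type and stood at -0.98, just under the limit, in Nlrp3-/-. Among 6 tested MAP2Ks (7 listed) Map2k1, which encodes a kinase that activates ERK, rose by 1.53 in wild-type BMDMs and by 1.26 in Nlrp3-/- BMDMs, and Map2k2, which encodes another, was at -0.09 and 0.05 (limma, adjusted p = 0.259 and 0.555).

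Of 16 MAP3Ks, 1 was called higher (Map3k5, 1.05) with stimulation in wild-type, against 8.25% of all tested genes. The 2 called lower were Map3k1 (-2.03) and Map3k20 (-1.09), against 11.2%. In Nlrp3-/- BMDMs Map3k1 alone was called, as lower (-1.59), against 8.21%, while Map3k5 was at 0.93 and Map3k20 at -0.68. Of 9 tested kinases activated by MAPKs (10 listed), Mapkapk2 rose by 1.20 and 1.33 in wild-type and Nlrp3-/-, while Mknk1 changed by -1.51 and -1.35 and Mknk2 by -1.503 and -1.40. Of 6 tested ERK feedback inhibitors (9 listed), Errfi1 rose by 1.59 with stimulation in wild-type and 0.73 in Nlrp3-/-, and was higher in Nlrp3-/- control by 1.73. Spry1 changed by -1.19 in Nlrp3-/- and was higher there in control by 1.36, but it passed the filter through 1 wild-type and 5 Nlrp3-/- libraries. Of 16 immediate early genes, which are transcribed first after a stimulus, 5 were called higher in wild-type and 9 in Nlrp3-/- BMDMs with stimulation, against 8.25% and 6.64% of all tested genes. In Nlrp3-/- BMDMs 3 were called higher in control and 6 with LPS+ATP, against 6.02% and 4.48%. Egr1 rose by 3.13 and 3.05, Ier3 by 3.32 and 2.76, Fosl1 by 2.00 and 2.18, Junb by 1.65 and 1.61, Fosb by 1.43 and 3.24 and Nr4a1 by 0.92 (under the fold limit) and 2.34, each in wild-type and in Nlrp3-/- BMDMs. Fosb passed the filter through LPS+ATP libraries alone, 3 of each genotype, and without it and Egr3, of which fewer than 3 control libraries reached 1 FPKM, the stimulation counts were 4 and 8. The genotype difference with LPS+ATP was 1.95 for Fosb, 1.54 for Nr4a1, 1.52 for Egr1 and 1.235 for Fosl1, and that in control was 1.60 for Egr1, 1.16 for Fosl2 and 1.06 for Fosl1. Not all of the list went up: by limma's adjusted p, under the fold limit, Atf3 was lower in Nlrp3-/- BMDMs in control (-0.58) and with LPS+ATP (-0.99), and Jun fell with stimulation (-0.86 in wild-type and -0.47 in Nlrp3-/-). Under median-ratio scaling some of these changes fell short of the fold limit: with stimulation in wild-type Dusp22 was at -0.78, Mapk3 at -0.82 and Map3k20 at -0.88, with stimulation in Nlrp3-/- Spry1 was at -0.97, and for genotype in control Fosl1 was at 0.92. Upper-quartile scaling did the same for Dusp22 (-0.89), Mapk3 (-0.97), Map3k20 (-0.98) and Fosl1 (0.993). Dusp22 also did so at -0.92 without wild-type control replicate 2 and -0.96 without wild-type LPS+ATP replicate 2. Fosl1 also did so at 0.985 without Nlrp3-/- control replicate 1 and 0.997 without Nlrp3-/- control replicate 2. Among these lists, the immediate early genes had the highest medians with stimulation, 0.713 and 1.06, beside -0.255 and -0.242 over all tested genes.

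**Figure D4:**
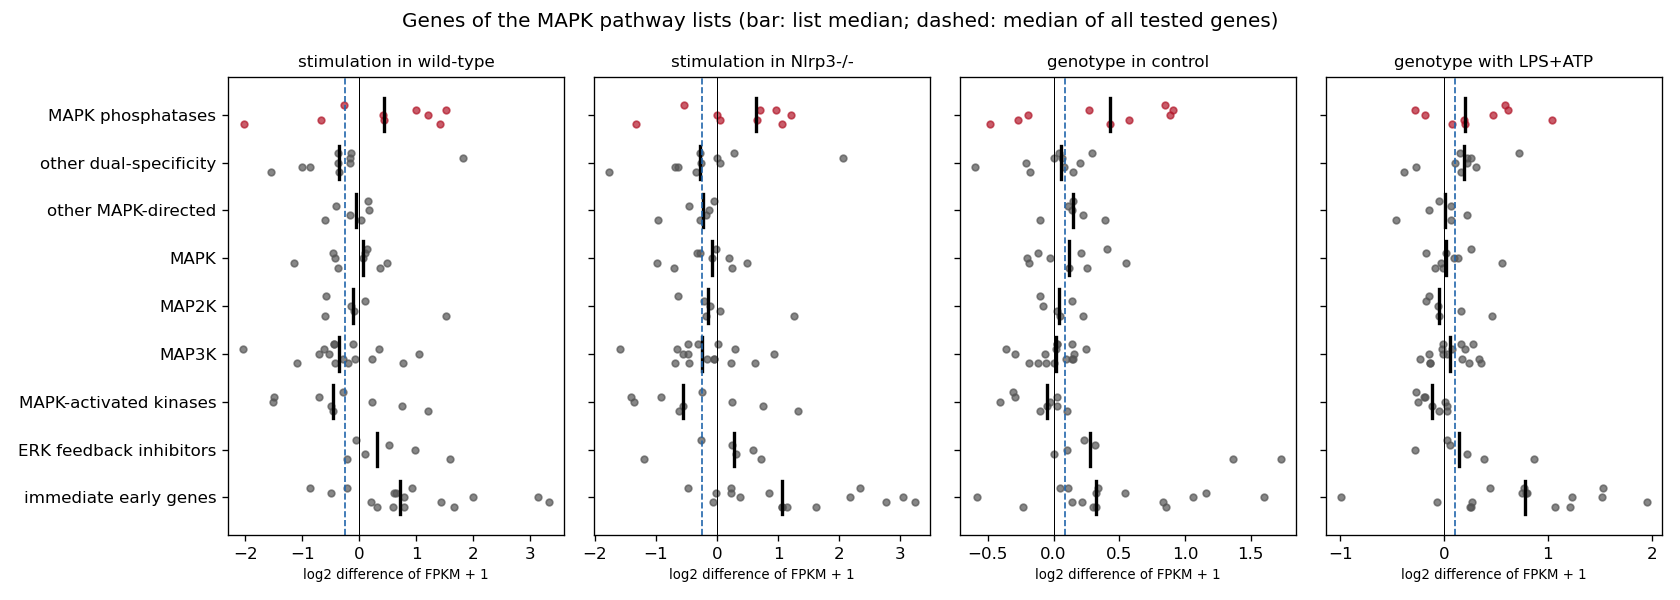
Log2 difference of FPKM + 1 (horizontal axis, with its own scale per panel) for the tested genes of 9 lists (vertical axis) in 4 comparisons; points are genes, black bars the median of a list and dashed lines the median of all tested genes. The phosphatases (red) spread on both sides of 0 with stimulation, from -2.01 to 1.52 in wild-type.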

How the data were processed

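The authors deposited FPKM per gene for each of 12 libraries, made with an Illumina TruSeq kit from total RNA. The submitters' processing notes name GRCm39 and DESeq2 1.24.0, while the aligner, the counter and its use of strand are not given in the sources used here. From the FPKM, limma 3.58.1 (R 4.3.3) was run on log2(FPKM + 1) with 1 mean per group and a variance trend, over the 12622 of 55335 genes that reached 1 FPKM in 3 libraries, after a test on simulated data. The genes named were all 10 phosphatases, Nlrp3, up to 4 called genes with the largest change per pathway list and comparison, and up to 3 of the genes most like each phosphatase. Sex-linked genes, cell type markers and genes that overlap a phosphatase or lack a single row were also named. Outside this rule, Map2k2, Atf3, Jun and Egr3 were named without being called. The members and lists were chosen with earlier results of these data known. Itgam and Map2k7 had 2 rows each and were not tested, and Dusp29 and Spry3 had none under these symbols. Positions and exons came from GENCODE M21 (GRCm38), and 0 of the 10 genes had a near copy (blastn, 95% identity over 20% of the longest transcript). Alternatives tried, 1 at a time, were TPM, median-ratio or upper-quartile scaling, 0.1 as pseudocount, filtering at 5 FPKM or not at all, calls without the fold limit, the replicate number as block, a fit without the variance trend, fits of the compared groups alone and leaving out each library.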

Additional observations from a re-analysis of the deposited data

Results flagged for a closer look

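The change with LPS+ATP differed between the genotypes, by limma's interaction at an adjusted p under 0.05, for 5 of the 9 tested phosphatases, 2 higher and 3 lower, beside 14.7% higher and 13.0% lower of all tested genes. The difference (Nlrp3-/- minus wild-type, log2) was 1.32 for Dusp2, which moved in opposite directions, 0.68 for Dusp7, which fell less in Nlrp3-/- BMDMs, and -0.35 for Dusp1, which rose less. It was -0.26 for Dusp6, which fell more in Nlrp3-/- BMDMs, and -0.42 for Dusp10, whose change was 0.42 in wild-type and -0.0012 in Nlrp3-/- BMDMs. The count depends on the setting: the limma adjusted p of Dusp10 reached 0.0769 among the alternatives. That of Dusp8, 0.0720 here, went down to 0.0178 without wild-type LPS+ATP replicate 3. The interaction of Dusp8 is a description, since it passed the filter mostly through Nlrp3-/- and LPS+ATP libraries. Among the genes of the pathway lists, the interaction was called for the immediate early gene Nr4a1, at 1.42. It was 1.81 for the immediate early gene Fosb, which passed the filter through LPS+ATP libraries alone, so its value is a description. Fosb was 0.0698 and 1.88 FPKM in wild-type and 0.181 and 10.2 FPKM in Nlrp3-/- BMDMs without and with LPS+ATP. Nr4a1 was 2.25 and 5.09 FPKM in wild-type and 2.49 and 16.6 FPKM in Nlrp3-/- BMDMs. The sex of the mice and the fibroblast and granulocyte markers also differed between genotypes. By limma's adjusted p alone, the interaction also had 5 macrophage markers higher and 3 lower of 9. Without filter-dependent genes, it had 6 fibroblast and 5 granulocyte markers lower, of 7 each. The part of sex and of these cells in the differences of the phosphatases and pathway genes was not tested.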

How the results depend on the processing

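Of 966 changes of the phosphatases under the alternatives, 902 kept their direction and their side of the threshold. Of the others, 44 passed it (26 of them only because the fold limit was removed), 4 fell short of it and 16 changed sign. For pathway genes the alternatives were followed only for called changes, up to 4 per list and comparison, none of which could newly pass the threshold. Of these 852, 839 kept both and 13 fell short. Other named changes of pathway genes were not followed. Changes of sign concerned Dusp6 with stimulation in wild-type (0.029 under median-ratio scaling), Dusp10 with stimulation in Nlrp3-/- (TPM 0.056, upper-quartile 0.095, median-ratio 0.219, leaving out a library -0.0486 to 0.0383), Dusp8 with stimulation in Nlrp3-/- (leaving out a library -0.0259 to 0.115, below 0 without Nlrp3-/- control replicate 2), Dusp1 for genotype with LPS+ATP (upper-quartile -0.038, median-ratio -0.107), Dusp16 for the same (leaving out a library -0.468 to 0.0830, above 0 without Nlrp3-/- LPS+ATP replicate 2) and Dusp4 for the interaction (upper-quartile -0.041, median-ratio -0.036, leaving out a library -0.0201 to 0.0360). The order for phosphatases called is stimulation in wild-type, stimulation in Nlrp3-/-, genotype in control, genotype with LPS+ATP and interaction. Without a fold limit these were 9, 7, 8, 6 and 5, against 4, 3, 0, 1 and 1. For genotype in control a pseudocount of 0.1 gave 3 and TPM 2. For genotype with LPS+ATP the filter of FPKM at least 5, upper-quartile and median-ratio scaling gave 0 each, and leaving out a library gave 0 to 1, with 0 without wild-type LPS+ATP replicate 2 or Nlrp3-/- LPS+ATP replicate 2. The filter also gave 0 for the interaction, since Dusp2 does not pass it. In all genes the calls, in the same order, were 2452, 1874, 847, 637 and 271, and became 3702, 2847, 1428, 1406 and 634 with a pseudocount of 0.1 and 9641, 9383, 6035, 6124 and 3494 without a fold limit. TPM gave 1285, 1175 and 501 for the last 3, and the filter of FPKM at least 5 gave 515 for genotype in control. Beyond fewer genes tested under the filter and the width of the fold limit, the cause was not tested. Median-ratio scaling moved the median of all genes by 0.246 and 0.229 for stimulation and by -0.119 and -0.147 for genotype, and upper-quartile scaling by 0.128 and 0.102 for stimulation. The share of calls that were higher with stimulation went from 42.5% to 61.5% in wild-type and from 44.7% to 64.4% in Nlrp3-/- BMDMs under median-ratio scaling, and to 52.9% in wild-type under upper-quartile scaling. With the replicate block 4, 3, 0, 1 and 1 phosphatases and 2453, 1876, 847, 636 and 268 genes were called, and no call of a phosphatase changed. Deviations of same-numbered libraries of different groups had correlations of -0.0565 to 0.0528, against -0.0687 to 0.0991 for other numbers. Of 12 libraries, 3 correlated best with their own number. No pairing by number was seen, but a weak effect shared by number cannot be told from these values. The number of reads behind Dusp2, Dusp8 and Dusp14, at a few FPKM or less, is not known.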

Other observations

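Itgam, a macrophage marker left out of the marker sums above, had 2 rows in the table. The first was between 33.0 and 103 FPKM and the second between 34.2 and 114 FPKM over the 12 libraries, each varying widely between libraries of 1 group, while their sum stayed within 149 to 156 in wild-type control, 136 to 142 in wild-type LPS+ATP, 134 to 139 in Nlrp3-/- control and 110 to 113 FPKM in Nlrp3-/- LPS+ATP BMDMs. Map2k7 had 2 rows as well, of which the second was between 0 and 2.41 FPKM. How reads were divided between such rows is not given in the sources used here. The symbols were chosen after their values were seen.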
